A study of Mus musculus with 12 samples.

Results

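The genes described here are 10 regulators of the podocyte actin cytoskeleton and foot processes, Synpo, Actn4, Inf2, Myo1e, Arhgap24, Arhgdia, Podxl, Ezr, Dbn1 and Ckap4. They were chosen by name, and all 10 were found by their symbol among the 14096 genes listed for the glomerular mRNA of 12 mice. All 12 were male eNOS−/− mice on a C57BL/6J background, which lack endothelial nitric oxide synthase, so the nondiabetic controls carry the same gene disruption. Streptozotocin (STZ), a toxin of pancreatic beta cells, was injected at 50 mg/kg on 5 days in mice aged 8 weeks to induce diabetes, with injections of citrate buffer in the nondiabetic mice. Treatment began 10 weeks later and lasted 8 weeks, with daily gavage of arctigenin (ATG, a plant lignan) at 40 mg/kg or of its vehicle, 5% DMSO, so that the mice were killed 18 weeks after induction. The 4 groups of 3 mice were vehicle-treated nondiabetic (Con_DMSO), ATG-treated nondiabetic (Con_ATG), vehicle-treated diabetic (DM_DMSO) and ATG-treated diabetic (DM_ATG). The labels name the tissue as kidney glomerulus, and their protocol also describes sorting of dissociated cells by a fluorescent protein, which the study's methods for these mice do not.

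Podocytes are the epithelial cells that cover the outer face of the glomerular capillaries, and their interdigitating foot processes are held in shape by bundled actin filaments. When this actin cytoskeleton is disturbed, foot processes flatten (effacement) and protein leaks into the urine. Synpo (synaptopodin) and Actn4 (alpha-actinin-4) organise and crosslink the filaments, Inf2 is a formin that nucleates and severs them, and Myo1e is a membrane-linked class I myosin. Arhgap24 inactivates Rac and Arhgdia keeps small GTPases of the same superfamily in the cytosol. Podxl (podocalyxin) is the negatively charged sialomucin of the apical surface, and Ezr (ezrin) ties it to actin. Mutations of ACTN4, INF2, MYO1E, ARHGAP24, ARHGDIA and PODXL are known in inherited human podocyte disease. Dbn1 (drebrin) binds actin filaments and Ckap4 is a membrane protein of the endoplasmic reticulum linked to microtubules, and the study named both as proteins found with the phosphatase PP2A and followed up Dbn1.

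Of the 10 genes, 7 have an entry in the RefSeq promoter table for GRCm38.p6, with 9 windows of 300 bases from 250 before to 50 after a start site, and Arhgap24, Podxl and Synpo are not in it. Each window was searched on both strands for the CArG box bound by serum response factor, for CAGCTG (an E box), for GGAATG (the core bound by TEAD factors) and for GCGTGGG (bound by zinc finger factors of the EGR type). These motifs were present in 1.63%, 16.3%, 14.7% and 5.04% of the 32851 windows in the table. Of the 9 windows 5 held a match. Windows are shown that held a match and whose genes were higher in ATG-treated diabetic than in ATG-treated nondiabetic mice, as described further on. These are the windows of Actn4, Myo1e and Arhgdia and the first of 2 overlapping windows of Inf2. Ckap4 was higher too, but its window and the second of Arhgdia held no match and are not shown. A link between motifs and expression was not tested. Capitals mark the matches, which read as the reverse complement (CATTCC or CCCACGC) where the motif is on the other strand.
Actn4, chr7:28962283-28962582, minus strand: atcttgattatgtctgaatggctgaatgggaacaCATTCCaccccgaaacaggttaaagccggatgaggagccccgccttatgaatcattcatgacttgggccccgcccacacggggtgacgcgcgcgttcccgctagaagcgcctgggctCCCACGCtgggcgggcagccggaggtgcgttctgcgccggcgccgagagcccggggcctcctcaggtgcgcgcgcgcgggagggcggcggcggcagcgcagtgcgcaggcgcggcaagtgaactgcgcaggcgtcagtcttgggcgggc
Inf2, chr12:112588517-112588816, plus strand: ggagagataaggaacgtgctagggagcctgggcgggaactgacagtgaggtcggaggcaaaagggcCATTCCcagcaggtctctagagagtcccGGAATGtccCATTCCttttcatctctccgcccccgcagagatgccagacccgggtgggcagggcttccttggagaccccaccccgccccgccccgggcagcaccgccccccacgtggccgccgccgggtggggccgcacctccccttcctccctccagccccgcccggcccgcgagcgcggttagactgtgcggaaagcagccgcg
Myo1e, chr9:70207100-70207399, plus strand: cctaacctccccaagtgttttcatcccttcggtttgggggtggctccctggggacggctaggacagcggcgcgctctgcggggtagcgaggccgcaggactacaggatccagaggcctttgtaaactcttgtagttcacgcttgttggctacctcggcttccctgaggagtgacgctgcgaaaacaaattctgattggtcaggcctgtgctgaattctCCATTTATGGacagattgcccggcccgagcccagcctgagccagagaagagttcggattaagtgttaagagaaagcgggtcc
Arhgdia, chr11:120581575-120581874, minus strand: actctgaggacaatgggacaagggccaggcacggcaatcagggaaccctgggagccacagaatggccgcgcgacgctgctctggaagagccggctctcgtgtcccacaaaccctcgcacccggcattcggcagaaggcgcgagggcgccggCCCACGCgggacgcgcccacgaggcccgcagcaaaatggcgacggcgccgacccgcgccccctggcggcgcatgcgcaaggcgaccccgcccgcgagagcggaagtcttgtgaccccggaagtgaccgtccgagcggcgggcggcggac

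The Inf2 window held GGAATG at 3 places, which began 184, 156 and 147 bases before the start site. The second Inf2 window (chr12:112588534-112588833), of a later start site, held the same places at 201, 173 and 164 bases before it. The Actn4 window held it once, 216 bases before the start site, together with GCGTGGG 99 bases before it. The Arhgdia window held GCGTGGG at the same distance of 99 bases, and the Myo1e window held the CArG box 32 bases before the start site. The windows of Ezr, Dbn1 and Ckap4 and the second window of Arhgdia held none of the 4 motifs. These are matches of letters and no evidence of binding.

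Expression is given as the authors' log2 value, which is log2 of reads scaled by 1 factor per library, so a difference of 1 is a doubling. The libraries held between 23.64 and 29.77 M reads on listed genes, and the 10 genes had from 740 reads (Ckap4) to 371595 reads (Podxl) in a mouse. The spread between mice given with each value includes read sampling. Nos3, the disrupted gene, had 846 to 2703 reads in the 12 libraries, a gene total that does not show the disrupted part. The samples hold podocytes by their markers, with a mean log2 value of 20 podocyte marker genes between 12.93 and 14.50 in each mouse. Tubule RNA was present too and moved with the groups. The mean of 22 tubule markers lay between 12.94 and 13.60 in Con_DMSO, 13.73 and 14.35 in Con_ATG, 11.14 and 12.42 in DM_DMSO, and 11.83 and 12.54 in DM_ATG. The diabetic mice were thus lower than the nondiabetic mice without overlap, and the part of tubule RNA in the differences described next was not tested apart from the covariate fit given with them. With diabetes in vehicle-treated mice, 16 of 22 tubule markers passed as lower (median log2 fold change −1.5), where 8.63% of all genes did. As higher, 6 of 12 endothelial markers (median 0.51) and 3 of 10 listed leukocyte markers passed, where 10.2% of all genes did. Of 10 mesangial markers 2 passed as higher and 1 as lower, and none of 20 podocyte and 6 parietal cell markers passed. In bulk RNA, fewer cells of a type and less RNA per cell cannot be told apart. The first part of each mouse's label is found in 1 group only, so whatever it marks cannot be told apart from the group.

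Levels were compared between genes per kilobase of transcript. Podxl was by far the most abundant, with a mean log2 level per kilobase of 15.55 ± 0.061 (SD, n = 3) in Con_DMSO mice, and without length division it ranked between 1 and 8 among all 14096 genes in every library. Actn4 followed at 13.24 ± 0.044 per kilobase. Arhgap24 (12.61 ± 0.07), Arhgdia (12.50 ± 0.057) and Ezr (12.30 ± 0.05) formed a group of near neighbours, and the values of Arhgap24 and Arhgdia met at 12.56 per kilobase. Myo1e (11.56 ± 0.032), Synpo (10.89 ± 0.088) and Inf2 (10.23 ± 0.2) came next, each apart from its neighbours in these 3 mice. Dbn1 (9.01 ± 0.02) and Ckap4 (8.37 ± 0.055), the pair linked to PP2A by the study, were the least abundant. In DM_DMSO mice, Dbn1 (8.65 ± 0.44) and Ckap4 (8.65 ± 0.14) had the same mean level per kilobase. In Con_ATG mice, Ezr (12.38 ± 0.05) had a higher mean per kilobase than Arhgdia (12.30 ± 0.17) and Arhgap24 (12.27 ± 0.4), a difference within the spread between mice.

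**Figure D1:**
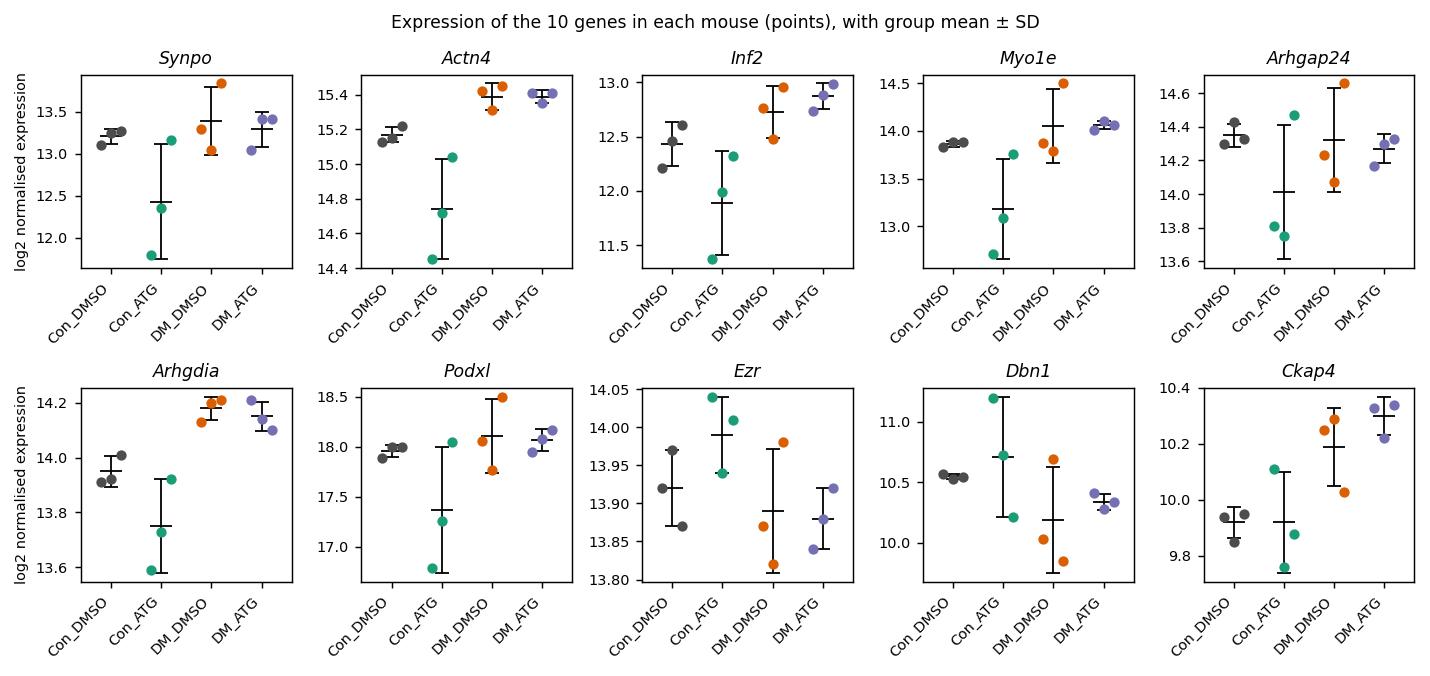
Log2 normalised expression (vertical axis, with its own scale for each gene) of the 10 genes in each of the 12 mice (points), with mean and SD of each group of 3. In Con_ATG, mice 1 and 2 lie below all other mice for Synpo, Actn4, Inf2, Myo1e, Arhgap24, Arhgdia and Podxl, while Dbn1 is highest in Con_ATG mouse 1 and Ezr spans the narrowest range.

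Synpo, which stiffens and bundles podocyte actin with alpha-actinin, had log2 values of 13.11, 13.25 and 13.27 in mice 1 to 3 of the vehicle-treated nondiabetic group, 11.79, 12.35 and 13.16 in the ATG-treated nondiabetic mice, 13.29, 13.05 and 13.84 in the vehicle-treated diabetic mice and 13.05, 13.42 and 13.42 in the ATG-treated diabetic mice. Mice 1 and 2 of the ATG-treated nondiabetic group were the lowest of all 12, and mouse 3 of that group lay among the controls. Actn4 (GRCm38 chromosome 7, 28893254 to 28962280 in the deposited annotation) is the main actin crosslinker of foot processes. Its log2 values were 15.13, 15.15 and 15.22 in mice 1 to 3 of the vehicle-treated nondiabetic group, 14.45, 14.72 and 15.04 in the ATG-treated nondiabetic mice, 15.42, 15.31 and 15.45 in the vehicle-treated diabetic mice and 15.41, 15.35 and 15.41 in the ATG-treated diabetic mice. Every diabetic mouse, treated or not, was above every nondiabetic mouse for Actn4, a pattern whose share over all genes was not computed. Actn4 shares up to 316 bases of exon with Capn12 on the opposite strand, and the use of strand in counting is not given in the sources used here.

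Inf2 (chromosome 12, 112588784 to 112615557) had log2 values of 12.21, 12.46 and 12.61 in mice 1 to 3 of the vehicle-treated nondiabetic group, 11.37, 11.99 and 12.32 in the ATG-treated nondiabetic mice, 12.76, 12.48 and 12.96 in the vehicle-treated diabetic mice and 12.74, 12.88 and 12.98 in the ATG-treated diabetic mice. All 3 ATG-treated diabetic mice were above all nondiabetic mice, a pattern whose share over all genes was not computed. The vehicle-treated diabetic mice overlapped with the vehicle-treated nondiabetic mice. Myo1e (chromosome 9, 70207350 to 70400067), which links membrane to actin at the slit diaphragm, had log2 values of 13.83, 13.88 and 13.88 in mice 1 to 3 of the vehicle-treated nondiabetic group, 12.71, 13.09 and 13.76 in the ATG-treated nondiabetic mice, 13.87, 13.79 and 14.50 in the vehicle-treated diabetic mice and 14.01, 14.10 and 14.06 in the ATG-treated diabetic mice. The vehicle-treated controls were nearly identical, whereas mouse 3 of the vehicle-treated diabetic group stood above all other mice and mouse 1 of the ATG-treated nondiabetic group below them.

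Arhgap24 (chromosome 5, 102481391 to 102897937), a GTPase-activating protein for Rac, had log2 values of 14.30, 14.43 and 14.33 in mice 1 to 3 of the vehicle-treated nondiabetic group, 13.81, 13.75 and 14.47 in the ATG-treated nondiabetic mice, 14.23, 14.07 and 14.66 in the vehicle-treated diabetic mice and 14.17, 14.30 and 14.33 in the ATG-treated diabetic mice. All 4 groups overlapped, although mice 1 and 2 of the ATG-treated nondiabetic group lay below the other 10 mice. Arhgdia (chromosome 11, 120577235 to 120581620), the GDP dissociation inhibitor of small GTPases, had log2 values of 13.91, 13.92 and 14.01 in mice 1 to 3 of the vehicle-treated nondiabetic group, 13.59, 13.73 and 13.92 in the ATG-treated nondiabetic mice, 14.13, 14.20 and 14.21 in the vehicle-treated diabetic mice and 14.21, 14.14 and 14.10 in the ATG-treated diabetic mice. As for Actn4, every diabetic mouse was above every nondiabetic mouse. The share of all genes with this pattern was not computed. Diabetic and nondiabetic groups did not overlap in 41.7% of all genes with vehicle and in 56.1% with ATG.

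Podxl (chromosome 6, 31519493 to 31563937) had log2 values of 17.89, 18.00 and 18.00 in mice 1 to 3 of the vehicle-treated nondiabetic group, 16.79, 17.26 and 18.05 in the ATG-treated nondiabetic mice, 18.06, 17.77 and 18.50 in the vehicle-treated diabetic mice and 17.95, 18.08 and 18.17 in the ATG-treated diabetic mice. The diabetic groups overlapped with the vehicle-treated controls, and mice 1 and 2 of the ATG-treated nondiabetic group were again the lowest. Ezr (chromosome 17, 6738131 to 6782780) had log2 values of 13.92, 13.97 and 13.87 in mice 1 to 3 of the vehicle-treated nondiabetic group, 14.04, 13.94 and 14.01 in the ATG-treated nondiabetic mice, 13.87, 13.82 and 13.98 in the vehicle-treated diabetic mice and 13.84, 13.88 and 13.92 in the ATG-treated diabetic mice. It varied least of the 10 genes between groups.

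Dbn1 (chromosome 13, 55473428 to 55488076) had log2 values of 10.57, 10.53 and 10.54 in mice 1 to 3 of the vehicle-treated nondiabetic group, 11.20, 10.73 and 10.21 in the ATG-treated nondiabetic mice, 10.03, 10.69 and 9.85 in the vehicle-treated diabetic mice and 10.41, 10.28 and 10.34 in the ATG-treated diabetic mice. The 3 vehicle-treated controls were nearly identical, while mice of the ATG-treated nondiabetic group and of the vehicle-treated diabetic group were spread on both sides of them. Ckap4 (chromosome 10, 84526305 to 84533888) had log2 values of 9.94, 9.85 and 9.95 in mice 1 to 3 of the vehicle-treated nondiabetic group, 10.11, 9.76 and 9.88 in the ATG-treated nondiabetic mice, 10.25, 10.29 and 10.03 in the vehicle-treated diabetic mice and 10.33, 10.22 and 10.34 in the ATG-treated diabetic mice. Its vehicle-treated diabetic mice were all above its vehicle-treated controls, a comparison in which 41.7% of all genes did not overlap. The ATG-treated diabetic mice were above those controls too, for which the share of all genes was not computed.

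The effect of diabetes alone was asked by comparing vehicle-treated diabetic with vehicle-treated nondiabetic mice. None of the 10 genes passed the test (limma over all 14096 genes, Benjamini-Hochberg adjusted p under 0.05), where 18.9% of all genes did, and 2 had an unadjusted p under 0.05. Those were Ckap4, at 0.27 on the log2 scale (standard error 0.098, 95% confidence interval 0.06 to 0.49, adjusted p = 0.0734 in limma), and Arhgdia, at 0.23 (standard error 0.09, interval 0.03 to 0.43, adjusted p = 0.091 in limma). For both and for Actn4 (log2 fold change 0.23, adjusted p = 0.253 in limma) the groups did not overlap, 3 of 10 genes where 41.7% of all genes did not. Log2 fold changes were 0.30 for Inf2, 0.19 for Myo1e, 0.18 for Synpo, 0.15 for Podxl, −0.03 for Ezr, −0.04 for Arhgap24 and −0.36 for Dbn1, with adjusted p in limma from 0.308 to 0.916. With 1 mouse left out at a time, Dbn1 ran from −0.61 to −0.19 and Inf2 from 0.19 to 0.43, and neither passed in any of these fits. The median over the 10 genes was 0.19, beside 0.0075 over all genes. With the number in the mouse labels as a replicate block, Synpo, Myo1e and Podxl were lower in the diabetic mice instead, as given further on. The intervals were wide for the genes that vary between mice, and that of Podxl ran from 0.675-fold to 1.81-fold. Of the podocyte markers, Nphs1 (nephrin) had a log2 fold change of 0.24 and Wt1 of −0.07, neither past the test. With the podocyte marker mean as a covariate, an alternative chosen after the data had been seen, Ckap4 (0.31, adjusted p = 0.0193 in limma) and Arhgdia (0.20, adjusted p = 0.04 in limma) passed, 2 of 10 genes where 29.3% of all genes did. Of the fits with 1 mouse left out, Ckap4 passed without Con_ATG mouse 1 (22.9% of all genes) or without DM_DMSO mouse 3 (15.2%), and Arhgdia without Con_ATG mouse 3 (23.8%), each time as 1 of 10. Once the tubule markers were a covariate, 0 of the 10 passed in limma (1.55% of all genes did), and the log2 fold changes of Inf2 (−0.23), Myo1e (−0.48), Synpo (−0.62), Podxl (−0.60) and Dbn1 (0.25) had the opposite sign.

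**Figure D2:**
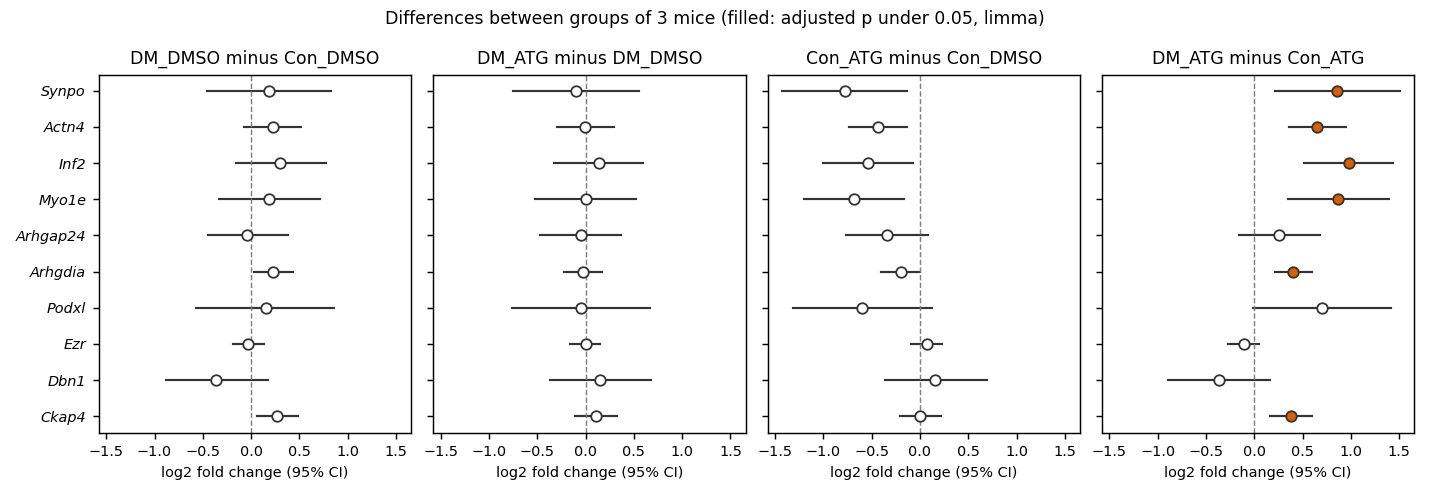
Log2 fold change (horizontal axis) with its 95% confidence interval for each of the 10 genes in 4 comparisons of 3 against 3 mice, filled where the adjusted p in limma is under 0.05. The 6 filled points are all in the comparison of ATG-treated diabetic with ATG-treated nondiabetic mice, and the intervals for ATG in diabetic mice all include 0.

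Whether ATG altered these genes in diabetic glomeruli was asked by comparing ATG-treated with vehicle-treated diabetic mice. The 10 log2 fold changes lay between −0.10 (Synpo) and 0.15 (Dbn1), none had an unadjusted p under 0.05, and the median was −0.01 beside −0.0051 over all genes. No gene of all 14096 passed in limma (0.0%), also with limma-voom on the recovered reads, although 4 genes, none of them among the 10, passed with the podocyte marker mean as a covariate, while 636 had an unadjusted p under 0.05 in limma. In each of the 10 genes the groups overlapped, where 10.2% of all genes did not. The test leaves different room for each gene. For Ezr the interval of the fold ran from 0.893 to 1.11, for Arhgdia from 0.856 to 1.12, for Actn4 from 0.811 to 1.22 and for Ckap4 from 0.93 to 1.25. For Dbn1, the drebrin gene, it ran from 0.772 to 1.60, for Synpo from 0.595 to 1.46 and for Podxl from 0.591 to 1.59. These intervals hold for each gene alone and are not the limit of what the adjusted test could call. The SD was smaller in the ATG-treated than in the vehicle-treated diabetic mice for all of the 10 genes but Arhgdia (0.052 against 0.042), for Dbn1 with 0.066 against 0.44 and for Myo1e with 0.044 against 0.39, and the median SD of all genes was smaller too, 0.099 against 0.14. The difference in spread was not tested.

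In nondiabetic mice, ATG-treated mice were compared with vehicle-treated mice. None of the 10 genes passed, where 5.22% of all genes did. There were 5 with an unadjusted p under 0.05 and a log2 fold change below 0, Synpo (−0.78, standard error 0.29, adjusted p = 0.117 in limma), Myo1e (−0.68, standard error 0.24, adjusted p = 0.101 in limma), Inf2 (−0.54, standard error 0.21, adjusted p = 0.126 in limma), Actn4 (−0.43, standard error 0.13, adjusted p = 0.0781 in limma) and Arhgdia (−0.20, standard error 0.09, adjusted p = 0.163 in limma). Podxl had −0.60 (adjusted p = 0.225 in limma) and Arhgap24 −0.34 (adjusted p = 0.236 in limma). Ckap4 (0.00), Ezr (0.07) and Dbn1 (0.16) stood apart from these 7. The groups did not overlap for Actn4 and Myo1e, 2 of 10 genes where 34.4% of all genes did not. The median was −0.39 beside −0.039 over all genes. One mouse decides these calls. Without Con_ATG mouse 3, whose values lay near the vehicle-treated controls, 7 of 10 genes passed as lower with ATG, where 25.0% of all genes passed, with log2 fold changes from −1.14 for Synpo to −0.29 for Arhgdia. With any other single mouse left out none passed. The changes then weakened to as little as −0.46 for Synpo (adjusted p in limma up to 0.364), −0.28 for Inf2 (up to 0.381) and −0.31 for Podxl (up to 0.58). With all 12 mice Nphs1 had a log2 fold change of −0.65 and Wt1 of −0.57 in this comparison, neither past the test. The mean of the podocyte markers was 12.93, 13.33 and 13.99 in the 3 ATG-treated nondiabetic mice, against 13.89 to 14.01 in the vehicle-treated ones. The mean of 12 endothelial markers was 12.53, 12.92 and 13.32 there, against 13.50 to 13.65. The mean of 10 mesangial markers was 11.11, 11.51 and 11.46, against 12.04 to 12.38, low in mouse 3 as well, with 7 of 10 markers passing as lower, and their part was not tested. That of the tubule markers was 14.05, 14.35 and 13.73. With the tubule covariate 0 of the 10 passed in limma (0.312% of all genes did), and Dbn1 (−0.14) and Ckap4 (−0.04) changed sign.

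Diabetic and nondiabetic mice that both received ATG differed most. Of the 10 genes, 6 were higher in ATG-treated diabetic mice and none lower, where 46.7% of all genes passed and 25.9% passed as higher. Inf2 was higher 1.97-fold (interval 1.43 to 2.71, adjusted p = 0.00394 in limma), Myo1e 1.83-fold (1.27 to 2.63, adjusted p = 0.0123), Synpo 1.82-fold (1.16 to 2.85, adjusted p = 0.0331), Actn4 1.57-fold (1.28 to 1.93, adjusted p = 0.00322), Arhgdia 1.32-fold (1.15 to 1.52, adjusted p = 0.00458) and Ckap4 1.30-fold (1.12 to 1.51, adjusted p = 0.00945). Podxl had a fold of 1.62 (0.99 to 2.66, adjusted p = 0.0977 in limma), Arhgap24 of 1.19, Ezr of 0.926 and Dbn1 of 0.775, none past the test. The groups did not overlap for Actn4, Inf2, Myo1e, Arhgdia, Ckap4 and Ezr, 6 of 10 genes where 56.1% of all genes did not, and for Ezr it was the ATG-treated nondiabetic mice that were above. Of the podocyte markers Nphs1 passed (log2 fold change 0.76, adjusted p = 0.0392 in limma) and Wt1 did not (0.60, adjusted p = 0.11 in limma), and 7 of 20 podocyte, 12 of 12 endothelial and 7 of 10 mesangial markers were higher, 20 of 22 tubule markers lower. The part of the endothelial and mesangial markers in the calls of the 10 genes was not tested. This comparison joins the vehicle comparison of diabetes with both ATG effects, and for Synpo, Myo1e, Podxl, Inf2, Actn4 and Arhgap24 the Con_ATG mean lay farther from Con_DMSO than the DM_ATG mean did. For Ckap4 the 2 nondiabetic means were both 9.92. With each of the 12 mice left out in turn, Actn4, Inf2, Myo1e, Arhgdia and Ckap4 passed in all 12 fits and Synpo in 8, losing the call without Con_ATG mouse 1 or 2 or DM_ATG mouse 2 or 3. In these fits 33.8% to 52.9% of all genes passed. With the number in the mouse labels as a replicate block, 4 of 10 passed (31.4% of all genes), without Synpo (0.53, adjusted p = 0.148 in limma) and Myo1e (0.63, adjusted p = 0.0706 in limma). This block is partly tied to diabetes. Number 3 belongs to diabetic mice only, and mouse 1 of Con_DMSO and of Con_ATG, which have no number, formed a level of their own. With only the groups compared in the fit, 5 of 10 passed (39.2% of all genes) and Synpo did not (adjusted p = 0.0673 in limma). Without the 2 nondiabetic mice with a label part of their own, mouse 1 of Con_DMSO and mouse 1 of Con_ATG, 4 of 10 passed (30.6% of all genes), and Synpo (log2 fold change 0.54, adjusted p = 0.154 in limma) and Myo1e (0.63, adjusted p = 0.0654 in limma) did not. Without Con_ATG mouse 3, 9 of 10 passed (52.9% of all genes), with Podxl and Arhgap24 higher and Dbn1 lower (log2 fold change −0.62, adjusted p = 0.0314 in limma). Once the tubule marker mean entered the fit as a covariate, 0 of the 10 passed (67 of all genes did), and Synpo, Podxl, Arhgap24 and Dbn1 changed sign.

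The difference between the ATG effects in diabetic and nondiabetic mice was tested as an interaction, which none of the 10 genes passed, where 0.546% of all genes did. Inf2 (log2 difference 0.67, standard error 0.30, adjusted p = 0.374 in limma) and Actn4 (0.42, standard error 0.19, adjusted p = 0.383 in limma) had an unadjusted p under 0.05. Synpo, Myo1e and Podxl had differences of 0.68, 0.68 and 0.55 with standard errors of 0.42, 0.34 and 0.46. For Dbn1 the difference was −0.01 (95% confidence interval −0.75 to 0.73). Without Con_ATG mouse 3, Actn4 passed (0.58, adjusted p = 0.042 in limma), where 5.46% of all genes did.

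**Figure D3:**
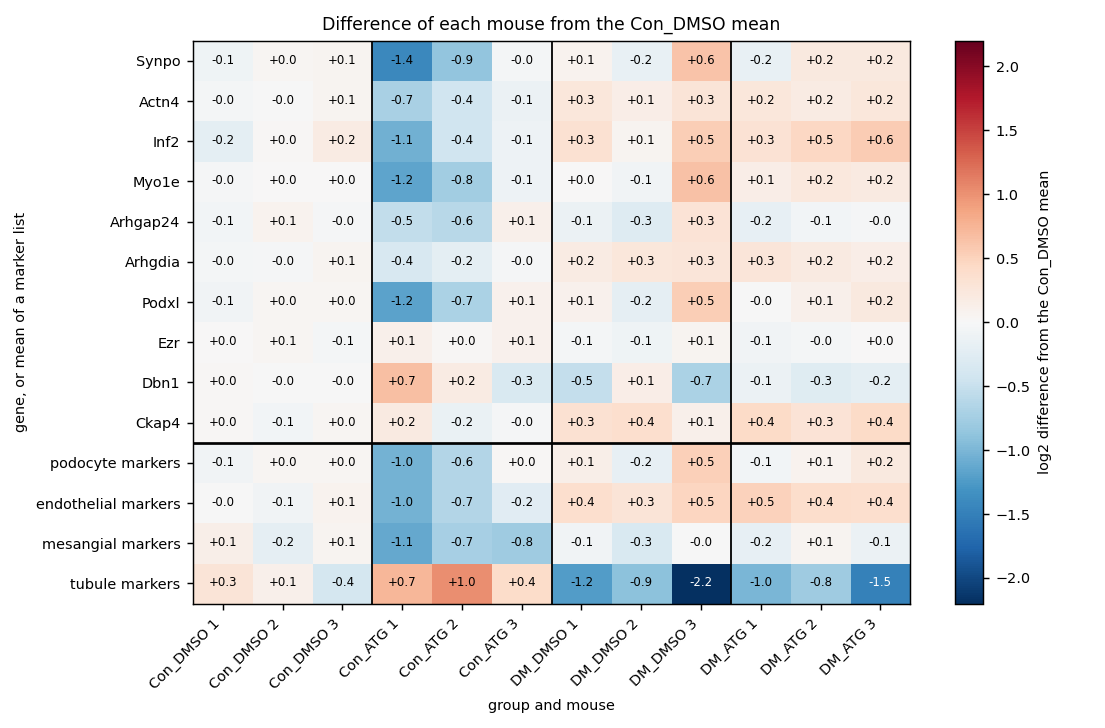
Difference of each mouse (columns) from the mean of the vehicle-treated nondiabetic mice, in log2 units, for the 10 genes and for the mean of 4 lists of cell type markers (rows). Con_ATG mice 1 and 2 are low for Synpo, Actn4, Inf2, Myo1e, Arhgap24, Arhgdia and Podxl and for the podocyte and endothelial markers, Dbn1 is high in Con_ATG mouse 1 and low in DM_DMSO mouse 3, and the tubule markers are low in all 6 diabetic mice.

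The 10 genes did not vary alike from mouse to mouse. Within the Con_DMSO group the SD of a gene was at most 0.2 (median 0.056, beside 0.089 over all genes), whereas in the Con_ATG group the median SD was 0.44 (0.16 over all genes) and 9 of the 10 genes had their largest SD there. In the DM_DMSO group the median SD was 0.27, and mouse 3 had the highest value for 8 of the 10 genes. That mouse also had the highest podocyte marker mean (14.50) and the lowest tubule marker mean (11.14) of the 12 mice. Con_ATG mouse 1 had the lowest value of its group for 6 genes and the highest for 3, namely Ezr, Dbn1 and Ckap4.

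Expression was then set beside the mean of the 20 podocyte markers, none of which is among the 10 genes, within the 6 nondiabetic and within the 6 diabetic mice, 20 relations in all. Each set of 6 joins vehicle- and ATG-treated mice, and the permutations exchanged mice between these treatments. The values of r and p thus include any difference between treatments and do not measure variation within a group. Podxl followed the markers in both, with Pearson's r of 0.999 (exact permutation p = 0.0139, adjusted p = 0.0397; Spearman's coefficient 0.829, exact permutation p = 0.0583, adjusted p = 0.0897) in nondiabetic and 0.992 (exact permutation p = 0.00556, adjusted p = 0.0278; Spearman's 0.943, exact permutation p = 0.0167, adjusted p = 0.0557) in diabetic mice. With the 2 mice of most extreme marker means left out, r was 0.872 and 0.959. Those were Con_ATG mice 1 and 2 among nondiabetic and DM_DMSO mice 2 and 3 among diabetic mice. The marker means of the mice left spanned only 13.89 to 14.01 and 13.91 to 14.18. Synpo had r of 0.998 and 0.967 (exact permutation p = 0.00556 and 0.0167, adjusted p = 0.0278 and 0.0404), with Spearman's coefficients of 0.943 and 0.829 (exact permutation p = 0.0167 and 0.0583, adjusted p = 0.0557 and 0.0897), and r of 0.842 and 0.859 without those mice. Dbn1 ran the other way. Its r was −0.894 in nondiabetic mice (exact permutation p = 0.0361, adjusted p = 0.0555) and −0.89 in diabetic mice (exact permutation p = 0.0222, adjusted p = 0.0404), and its Spearman's coefficient was −0.829 in both (exact permutation p = 0.0583, adjusted p = 0.0897). Its r was −0.274 and −0.427 without the 2 extreme mice. Over so narrow a range of marker means, these values cannot decide whether Dbn1 is related to the markers. Ezr had r of −0.514 in nondiabetic mice (exact permutation p = 0.264, adjusted p = 0.293; Spearman's −0.371, exact permutation p = 0.497, adjusted p = 0.585) and of 0.981 in diabetic mice (exact permutation p = 0.00556, adjusted p = 0.0278; Spearman's 0.943, exact permutation p = 0.0167, adjusted p = 0.0557), with 0.174 and 0.914 without the extreme mice. In nondiabetic mice the r of Actn4 fell from 0.98 to 0.162, that of Myo1e from 0.992 to 0.266 and that of Arhgdia from 0.978 to 0.504 without the 2 extreme mice. In diabetic mice Actn4 went from 0.741 to −0.00772 and Myo1e from 0.877 to −0.0329, with the same limit of a narrow range. Arhgdia had r of −0.0829 in diabetic mice, which became −0.995 without the extreme mice, opposite in sign to its r in nondiabetic mice. Inf2 had r of 0.953 and 0.807 in nondiabetic and diabetic mice, with 0.789 and 0.73 left without the extremes, and Arhgap24 had 0.93 and 0.978, with 0.599 and 0.843 left. Ckap4 had r of −0.399 and −0.764, with −0.477 and −0.0566 left. No Spearman's coefficient of the 20 relations passed after adjustment (permutation tests), and the relations of other genes with the markers were not computed. Gene and markers come from the same library, and 3 mice of a group are too few for a relation within it.

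**Figure D4:**
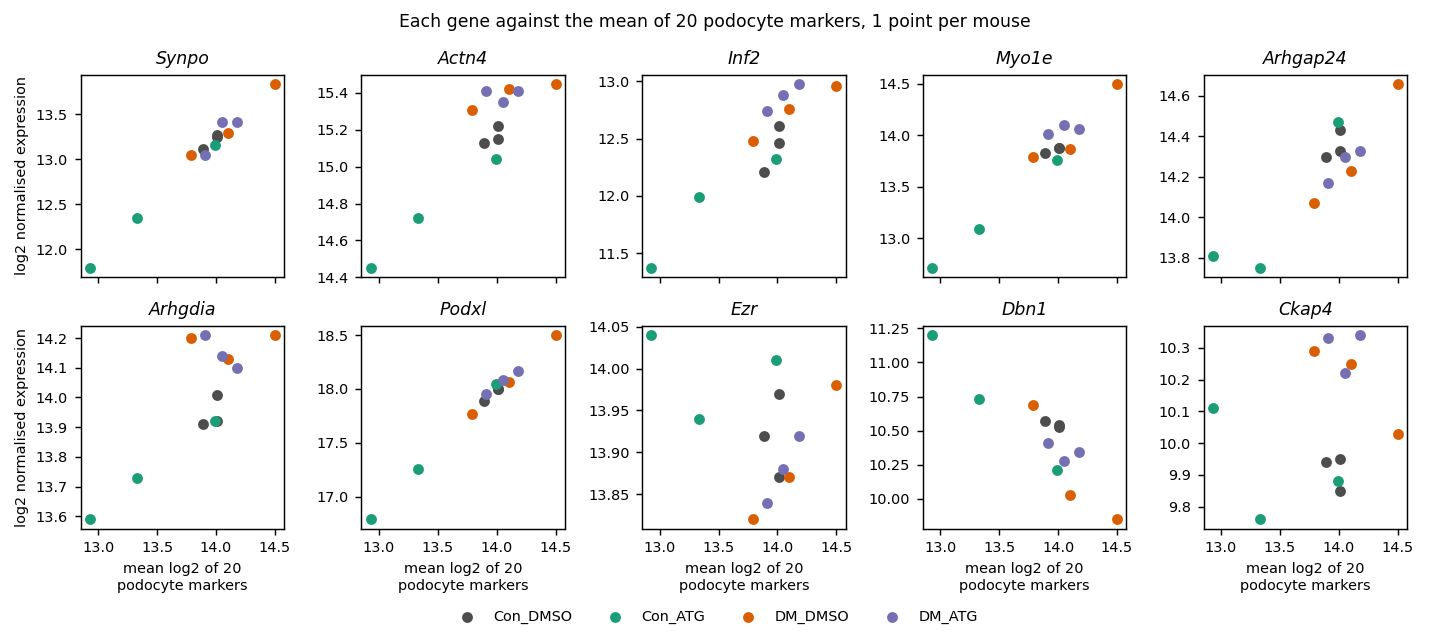
Log2 normalised expression of each gene (vertical axis) against the mean log2 value of 20 podocyte markers (horizontal axis), 1 point per mouse, coloured by group. Podxl and Synpo lie along 1 line over all groups, Dbn1 runs downwards, and for Actn4, Arhgdia, Inf2 and Ckap4 most diabetic mice lie above nondiabetic mice of the same marker mean.

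Relative to the podocyte marker mean, Podxl was nearly constant, 3.99 ± 0.012 (SD, n = 3) log2 units above it in Con_DMSO, 3.95 ± 0.097 in Con_ATG, 3.98 ± 0.022 in DM_DMSO and 4.02 ± 0.025 in DM_ATG. Synpo lay 0.76 ± 0.02 log2 units below the marker mean in Con_DMSO and 0.99 ± 0.15 below it in Con_ATG, with 0.74 ± 0.074 and 0.75 ± 0.11 below it in the diabetic groups. Inf2, the formin, lay 1.54 ± 0.14, 1.53 ± 0.17, 1.40 ± 0.12 and 1.18 ± 0.015 below it in the same order of groups. On this scale 1 of the 10 genes passed for ATG-treated diabetic against ATG-treated nondiabetic mice, Ezr with a log2 difference of −0.74 (adjusted p = 0.0381 in limma), where 26.3% of all genes passed, 3578 of the 3701 as lower, and the median of all genes was −0.58. With the podocyte mean as a covariate in place of a subtraction, Actn4, Inf2, Arhgdia and Ckap4 kept their calls in this comparison, 4 of 10 where 24.0% of all genes passed, and Synpo (0.08, adjusted p = 0.466 in limma) and Myo1e (0.27, adjusted p = 0.0696 in limma) lost theirs.

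A wider list of 93 other genes of actin structure and regulation, of which 92 are listed here and Trpc5 is not, was read in the same fit. For diabetes alone 14 of 92 passed, all higher (15.2%, beside 18.9% of all genes in both directions and 10.2% as higher). The 5 with the lowest p were Anln (anillin, which bundles actin in dividing cells) with a log2 fold change of 0.86, Fscn1 (fascin, a filament bundler) with 1.13, Vasp (which elongates filaments) with 0.47, Pfn1 (profilin) with 0.43 and Cfl1 (cofilin, which severs filaments) with 0.47, at adjusted p from 0.00181 to 0.00672 in limma. The actin genes Actb (0.62) and Actg1 (0.46) passed as well. Of the 7 listed genes of integrin linkage none passed for diabetes. Left out singly, Con_DMSO mice 1, 2 and 3 and DM_DMSO mouse 1 brought the number down to 7, 6, 8 and 5, in fits where 8.95%, 5.68%, 11.3% and 7.12% of all genes passed. With the tubule covariate 2 of the 92 passed, where 219 of all genes did. Fewer of the 92 also passed with the replicate block or relative to the podocyte markers, and more with the podocyte covariate, as given further on. In those fits 9.75%, 0.305% and 29.3% of all genes passed. The endothelial markers, 6 of 12 higher here, moved with these genes, and their part was not tested. For ATG in diabetic mice 0 of 92 passed in limma and in limma-voom, and Was (−0.53, adjusted p = 0.917 in limma) and Myh10 (0.23, adjusted p = 0.9997 in limma), a nonmuscle myosin, had the lowest p.

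With ATG in nondiabetic mice 15 of 92 passed, all lower (16.3%, beside 4.51% of all genes as lower). The lowest p were those of Vcl (vinculin, log2 fold change −0.79), Flna (filamin A, −0.99), Kank4 (−1.02), Vasp (−0.43) and Trpc6 (a cation channel mutated in inherited podocyte disease, −1.10), with adjusted p from 0.0023 to 0.00994 in limma. The nonmuscle myosins Myh9 (−0.51) and Myh10 (−0.37) and talin, Tln1 (−0.44), also passed as lower. The mesangial and endothelial marker lists moved with them, with 7 of 10 mesangial and 6 of 12 endothelial markers lower in this comparison and 1 of 20 podocyte markers, and their part in these calls was not tested. In the fit of only the 2 groups compared, 0 of the 92 and 0 of all genes passed in limma. When 1 mouse was left out, 53 of the 92 passed without Con_ATG mouse 3 (25.0% of all genes) and 23 without DM_DMSO mouse 3 (10.1%). Without Con_DMSO mouse 1 or 3 it was 4 (0.901% and 0.426% of all genes), without Con_ATG mouse 1 or 2 it was 7 or 6 (1.5% and 1.43%), and without DM_DMSO mouse 1 or DM_ATG mouse 2 or 3 it was 9 (2.84%, 2.82% and 2.58%). With the tubule covariate 3 of the 92 passed (0.312% of all genes), and without the 2 mice with a label part of their own 1 did (0.0568%).

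Between ATG-treated diabetic and ATG-treated nondiabetic mice, 56 of the 92 genes were higher (60.9%, beside 25.9% of all genes) and 4 lower (4.35%, beside 20.8%). All 7 genes of integrin linkage, 12 of 15 actin and crosslinker genes, 13 of 17 small GTPases and regulators and 8 of 12 myosins and their kinases were higher. In the group of nucleation, turnover and elongation 10 of 24 were higher and 2 lower, and among membrane anchors 6 of 17 were higher and 2 lower. The 5 higher genes with the lowest p were Vasp (1.85-fold), Anln (2.33-fold), Vcl (2.03-fold), Fscn1 (2.46-fold) and Flna (2.18-fold). The 4 lower genes were Slc9a3r1 and Magi1, scaffolds at the membrane, the brush border villin gene Vil1, and Pfn2. The endothelial and mesangial markers moved with these genes as well (median log2 fold changes 1.12 and 0.76), and their part was not tested. With the tubule covariate, 3 of the 92 passed. Far fewer of the 92 than above also passed relative to the podocyte marker mean, as given further on. On that scale 26.3% of all genes passed, 3578 of the 3701 as lower.

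**Figure D5:**
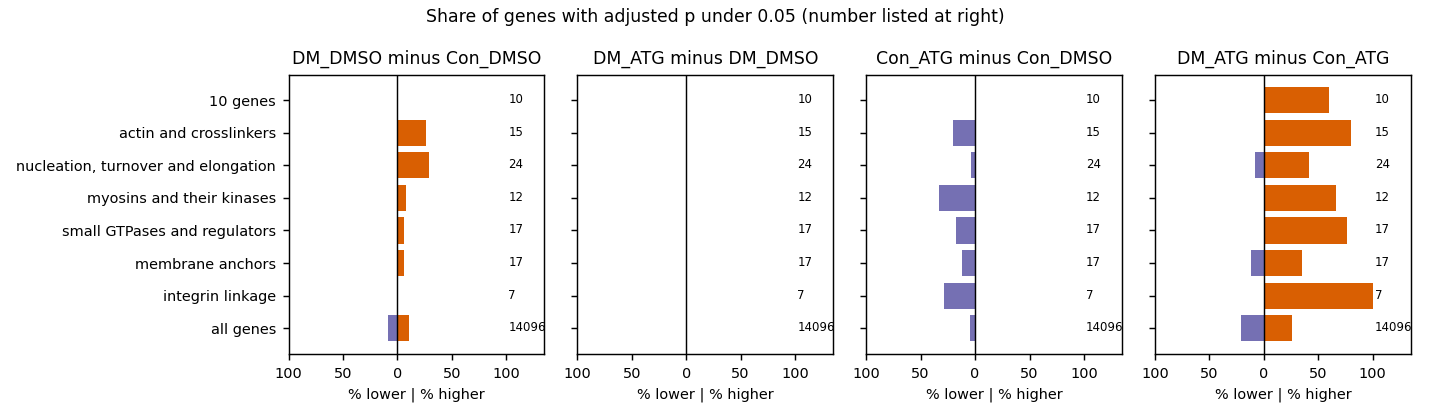
Percentage of genes with an adjusted p under 0.05 in limma, to the right of 0 where higher and to the left where lower in the first-named group, for the 10 genes, for 6 role groups of the wider list and for all 14096 genes, with the number of genes at the right of each bar. No bar is drawn for ATG in diabetic mice, and in DM_ATG against Con_ATG mice the bar of the 7 integrin linkage genes reaches 100%.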

How the data were processed

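Glomerular poly-A mRNA of 12 mice was sequenced (4 groups, 3 mice each). The files deposited by the authors, 1 for each mouse, give log2 values by gene, each being log2 of reads multiplied by 1 factor per library and not divided by length. Between 83.78% and 84.35% of linear values under 2000 reads were whole multiples of 1 step per library (within 0.02 reads), from which reads were recovered. The submitters' processing notes name mm10 and limma. The aligner and counter are not given in the sources used here.

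Groups follow the labels' descriptions. Replicate numbers follow accession order, and mice of a group are separate animals. limma 3.58.1 (R 4.3.3) was fitted to the deposited log2 values of all 12 mice with a mean-variance trend, 5 contrasts and Benjamini-Hochberg adjustment over 14096 genes. Standard errors and 95% confidence intervals are from this fit. Exact permutation tests (SciPy) were two-sided. The fit was also run on simulated data for the diabetes comparison only, and the outcome is not used here.

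The 10 genes and all lists (92 further actin genes and markers of podocytes, endothelium, mesangium, tubules, leukocytes and parietal cells) were chosen with earlier results of these data known. All 10 genes are described in every comparison. Of the wider list, the genes named are the called ones of lowest p (at most 5 higher and 5 lower), or 2 where none was called, and Nphs1 and Wt1 of the markers. A further marker of that rule is not reported here. Actb, Actg1, Myh9, Myh10 and Tln1 were named after their values were seen. Alternatives were a minimum of 10 reads, only the groups compared, a block by the number in the mouse labels, median-ratio scaling, limma-voom on recovered reads, no trend, the tubule or podocyte marker mean as a covariate, values relative to the podocyte markers, an adjusted p under 0.1, the 2 nondiabetic mice with a label part of their own left out, and each mouse left out. Positions are as deposited, counted from 1. Protein and cell culture data were not analysed here.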

Additional observations from a re-analysis of the deposited data

Results flagged for a closer look

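Among the 10 genes none had ATG effects that differed between diabetic and nondiabetic mice in the interaction test. In the wider list 3 of 92 genes did, where 77 of all 14096 (0.546%) did, all 3 lower with ATG in nondiabetic mice and near 0 for ATG in diabetic mice. Vcl, which encodes vinculin, had a difference of 0.81 log2 units (standard error 0.12, adjusted p = 0.0272 in limma), with group means of 12.71, 11.91, 12.92 and 12.94 in Con_DMSO, Con_ATG, DM_DMSO and DM_ATG. Flna, which encodes the actin crosslinker filamin A, had a difference of 1.01 (standard error 0.18, adjusted p = 0.0455 in limma), with means of 13.96, 12.97, 14.07 and 14.09 in the same order. Kank4, of a family that regulates actin, had a difference of 1.03 (standard error 0.19, adjusted p = 0.0455 in limma), with means of 11.17, 10.15, 11.29 and 11.30. With 1 mouse left out at a time, Vcl passed in 4, Flna in 3 and Kank4 in 2 of 12 fits, and over the 21 alternative fits in 10, 7 and 5, with adjusted p in limma up to 0.566 for each. Of all genes, 0.0426% to 5.46% passed in the 12 fits and 0.0% to 5.46% in the 21. Mesangial and endothelial markers moved with these genes, 7 of 10 and 6 of 12 lower with ATG in nondiabetic mice, and their part was not tested.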

How the results depend on the processing

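Counts are of genes with an adjusted p under 0.05, and diabetes under ATG means ATG-treated diabetic against ATG-treated nondiabetic mice. The fit on all 12 mice called 0, 0, 0, 6 and 0 of the 10 genes and 14, 0, 15, 60 and 3 of the 92 for diabetes, ATG in diabetic mice, ATG in nondiabetic mice, diabetes under ATG and the interaction. Over all alternatives other than the looser threshold, the log2 fold changes of the 10 genes kept their sign and their side of the threshold in 197 of 220 (diabetes), 189 of 220 (ATG in diabetic mice), 197 of 220 (ATG in nondiabetic mice), 186 of 220 (diabetes under ATG) and 196 of 210 (the interaction). With the tubule marker mean as a term, calls of the 10 genes were 0 for diabetes under ATG and calls of the 92 were 2 for diabetes, 3 for ATG in nondiabetic mice, 3 for diabetes under ATG and 1 in the interaction test, where 1.55%, 0.312%, 0.475% and 0.248% of all genes passed. The fold changes of opposite sign were Synpo −0.62, Inf2 −0.23, Myo1e −0.48, Podxl −0.60 and Dbn1 0.25 for diabetes, Synpo 0.09, Actn4 0.05, Arhgap24 0.09, Podxl 0.13 and Ezr 0.02 for ATG in diabetic mice, Dbn1 −0.14 and Ckap4 −0.04 for ATG in nondiabetic mice, Synpo −0.15, Arhgap24 −0.50, Podxl −0.24 and Dbn1 0.39 for diabetes under ATG, and Dbn1 0.15 in the interaction test. Relative to the podocyte marker mean, calls of the 10 genes were 1 for diabetes under ATG and calls of the 92 were 0 for diabetes, 0 for ATG in nondiabetic mice, 6 for diabetes under ATG and 0 in the interaction test, where 0.305%, 0.0%, 26.3% and 0.0% of all genes passed. The fold changes of opposite sign were Podxl −0.02 for diabetes, Actn4 0.08, Arhgap24 0.03, Arhgdia 0.06, Podxl 0.04 and Ezr 0.08 for ATG in diabetic mice, Actn4 0.12, Inf2 0.01, Arhgap24 0.21 and Arhgdia 0.35 for ATG in nondiabetic mice, Arhgap24 −0.37, Arhgdia −0.23 and Ckap4 −0.25 for diabetes under ATG, and Actn4 −0.04, Arhgap24 −0.17, Arhgdia −0.29 and Ckap4 −0.36 in the interaction test. With the podocyte marker mean as a term (chosen after seeing the data), calls of the 10 genes were 2 for diabetes and calls of the 92 were 23 for diabetes and 6 for ATG in nondiabetic mice, where 29.3% and 0.688% of all genes passed. The fold changes of opposite sign were Synpo −0.02 and Podxl −0.04 for diabetes, Synpo 0.01, Actn4 0.03, Arhgap24 0.01, Podxl 0.05 and Ezr 0.00 for ATG in diabetic mice, Arhgap24 0.05, Podxl 0.02, Dbn1 −0.37 and Ckap4 −0.12 for ATG in nondiabetic mice, Arhgap24 −0.19, Podxl −0.01 and Dbn1 0.23 for diabetes under ATG, and Arhgap24 −0.04 and Dbn1 0.43 in the interaction test. With the replicate block, calls of the 92 were 7 for diabetes and 0 in the interaction test, where 9.75% and 0.0568% of all genes passed. The fold changes of opposite sign were Synpo −0.15, Myo1e −0.05 and Podxl −0.14 for diabetes. Without the 2 mice with a label part of their own, calls of the 10 genes were 4 for diabetes under ATG, without Synpo and Myo1e, and calls of the 92 were 1 for ATG in nondiabetic mice and 0 in the interaction test, where 30.6%, 0.0568% and 0.0426% of all genes passed. The fold changes of opposite sign were Dbn1 −0.07 and Ckap4 −0.08 for ATG in nondiabetic mice, and Dbn1 0.22 in the interaction test. With median-ratio scaling, the fold changes of opposite sign were Actn4 0.01 and Ezr 0.01 for ATG in diabetic mice. With limma-voom on the recovered reads, the fold changes of opposite sign were Ckap4 −0.01 for ATG in nondiabetic mice, and Dbn1 0.01 in the interaction test. With only the groups compared, calls of the 92 were 0 for ATG in nondiabetic mice and calls of the 10 genes 5 for diabetes under ATG, without Synpo, where 0.0% and 39.2% of all genes passed. Without the trend, calls of the 92 were 1 in the interaction test, where 0.135% of all genes passed. At an adjusted p under 0.1, calls of the 10 genes were 2 for diabetes and 1 for ATG in nondiabetic mice and calls of the 92 were 36 for ATG in nondiabetic mice and 6 in the interaction test, where 29.3%, 15.2% and 1.53% of all genes passed for diabetes, ATG in nondiabetic mice and the interaction. For diabetes under ATG, Podxl (adjusted p = 0.0977 in limma) passed as well at this threshold, where 55.7% of all genes did. With 1 mouse left out at a time, calls of the 10 genes were 0 to 1 for diabetes, 0 to 7 for ATG in nondiabetic mice, 0 to 1 in the interaction test, and of the 92 5 to 18 for diabetes, 4 to 53 for ATG in nondiabetic mice, 0 to 25 in the interaction test, in fits where 5.68% to 23.8%, 0.426% to 25.0% and 0.0426% to 5.46% of all genes passed. Log2 fold changes that changed sign then were Synpo −0.04 to 0.36, Myo1e −0.03 to 0.32, Arhgap24 −0.21 to 0.09, Podxl −0.05 to 0.32, Ezr −0.08 to 0.00 for diabetes; Synpo −0.27 to 0.12, Actn4 −0.05 to 0.02, Myo1e −0.13 to 0.23, Arhgap24 −0.18 to 0.12, Podxl −0.22 to 0.15, Ezr −0.04 to 0.04, Dbn1 −0.02 to 0.40 for ATG in diabetic mice; Dbn1 −0.08 to 0.41, Ckap4 −0.09 to 0.08 for ATG in nondiabetic mice; Dbn1 −0.26 to 0.24 in the interaction test. Same-numbered mice are different animals and their deviations from the group means correlated at −0.59 to 0.339 across genes. Between DM_DMSO and DM_ATG the correlations were 0.315, 0.054 and 0.339 for numbers 1, 2 and 3. Mice of different numbers were not compared, so these values cannot decide whether the numbers mark something shared. Under the block Synpo (0.53, adjusted p = 0.148 in limma) and Myo1e (0.63, adjusted p = 0.0706 in limma) lost their calls for diabetes under ATG. The tubule marker mean differs between diabetic and nondiabetic mice without overlap, and 67 of all 14096 genes passed with it for diabetes under ATG. Taken relative to the podocyte markers, the median log2 fold change of all genes was −0.156, 0.0818, 0.513, −0.575 and −0.450 in the 5 comparisons. The cause of each change was not tested. A minimum of 10 reads in every mouse changed no call of the 10 genes.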
